A study of Schizosaccharomyces pombe with 4 samples.

Results

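The genes described here are alp41 (SPAC22F3.05c), the 4 tubulin genes nda2 (SPBC16A3.15c), atb2 (SPBC800.05c), nda3 (SPBC26H8.07c) and gtb1 (SPBC32F12.04), and alp1 (SPBC11C11.04c), with every intron that the deposited table places inside them. They were chosen by identifier, not by their values, and make up 6 of 7022 transcripts and 24 of 5361 introns. Libraries were made from 2 wild-type cultures of fission yeast (*S. pombe* strain ED668) and from 2 cultures of a strain lacking dbr1, the gene for the enzyme that opens the branched lariats of excised introns. Both strains were h+, carried the alleles ade6-M216, ura4-D18 and also leu1-32, and were grown in rich medium (YES) at 32 °C to an OD600 of 0.4, and the mutant (dbr1Δ) came from the Bioneer deletion collection. The libraries were strand-specific and rRNA-depleted. The sources do not say whether the dbr1Δ cultures came from more than 1 isolate, so the comparisons are between cultures of these strains.

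Microtubules are built from dimers of alpha- and beta-tubulin. Newly made tubulins fold on the chaperonin CCT with the help of prefoldin, and tubulin folding cofactors then join the alpha and the beta chain into a dimer. Alp1 is cofactor D, which holds beta-tubulin during this step, and Alp41 is a small GTPase of the ARF-like family that acts with the cofactors. Nda2 is the essential alpha-tubulin, Atb2 a further alpha-tubulin and Nda3 the beta-tubulin of fission yeast, and gamma-tubulin (Gtb1) nucleates microtubules at spindle pole bodies and other organizing centres. Several of these genes were first found in mutants with bent or branched cells, which the names alp (altered polarity) recall. An intron is removed in a pair of steps. The 5′ end is first joined to a branch-point adenine, which makes a lariat, and the exons are then ligated while the lariat is released. In cells without Dbr1 the lariats persist, and their sequence can enter a library.

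Library totals, summed over all transcripts and introns, ran from 19780858 to 36062720 reads. The dbr1 transcript had 1535 and 1799 reads in the 2 wild-type cultures and 207 and 164 in the dbr1Δ cultures (log2 fold change -2.77, s.e. 0.12, edgeR adjusted p = 3.8e-07), which matches the labels. Of the mating-type markers looked for, the 2 P-cell genes found summed to 19.2 and 17.7 CPM (read counts scaled to the size of the library) in wild type and to 12.2 and 10.9 CPM in dbr1Δ. The 6 M-cell genes found summed to 44.2 and 48.0 CPM in wild type and 45.8 and 47.3 CPM in dbr1Δ. The M-cell gene mat3-Mc was at 0 in all 4 libraries, whereas mam2, the pheromone receptor gene of M cells, had 54 and 73 reads in wild type and 287 and 237 in dbr1Δ. Most M-cell reads came from mam1, with 956 and 1532 in wild type and 766 and 624 in dbr1Δ. The genes mfm1, mfm2 and mfm3 had from 3 to 61 reads in a library. These reads are not scaled to library size, and the M-cell sum thus hides unlike moves of its genes. The part of these shifts in the results was not tested. Over all introns, reads across the 5′ exon-intron boundary amounted to 701 and 738 CPM in wild type and 1377 and 1366 in dbr1Δ, and exon-exon junction reads to 22738 and 22099 in wild type and 17947 and 20891 in dbr1Δ. Values written as pairs are those of replicate 1 and then replicate 2 of a strain.

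Each intron has 3 kinds of read. Junction reads (JR) cross the ligated exons on both sides of the intron and come from spliced RNA. Boundary reads (EI) cross from the upstream exon into the intron and come from RNA whose 5′ splice site has not been cut. All other reads assigned to the intron are called intron reads here, and the level of an intron is its intron reads plus its EI reads. Splicing efficiency (SE) is the log2 of JR plus 1 over EI plus 1. A change in SE was called at an adjusted p under 0.05, and a change in level at an adjusted p under 0.05 with a fold change over 2. Standard errors of fold changes are given as s.e. Reads were 49 bases long, and 13 of the 24 introns (1760 of the 5361) are under 49 bases, so that no whole read can lie inside them. How reads at such short introns were assigned is not given in the sources used here.

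All 24 introns open with GT and close with AG. The donor GTATGT was found in 8 of the 24 and in 19.8% of 5222 annotated introns of the same genome. The branch-site letters CTAAN, searched on the transcript strand from base 7 of the intron on, were found in 17 of the 24 and in 74.2% of the annotated introns. These are matches of letters, not mapped branch points.

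Among the 24 introns, the largest changes in SE and in level were in alp41. The gene lies on the plus strand of chromosome I (I:697191-703040, Ensembl build EF1 as used by the authors) and has 6 introns, of which introns 1 to 5 interrupt the coding region and intron 6 lies in the 3′ UTR. Its RefSeq mRNA is 5484 bases long, of which 561 are coding (10.2%), and exons 6 and 7 hold 3526 and 1533 bases. In dbr1Δ reads collected at intron 2, boundary reads collected at the start of intron 3, and junction reads over intron 3 were not seen. In lariat reads of an earlier dbr1Δ study, the authors' lariat search identified an exon-skipping event in alp41. The main text of their paper does not name the exon. Whether the reads here came from such an event was not tested. The stretch from the start of intron 2 to the end of intron 3 (I:697456-697620, plus strand) is shown because both of these neighbouring introns changed. The introns are in lower case and exon 3 (I:697496-697568, 73 bases, not a multiple of 3) is in capitals. Bases here and below are from the RefSeq genome ASM294v3, in which all 24 introns lie at the coordinates of the authors' table.
alp41 intron 2, exon 3 and intron 3: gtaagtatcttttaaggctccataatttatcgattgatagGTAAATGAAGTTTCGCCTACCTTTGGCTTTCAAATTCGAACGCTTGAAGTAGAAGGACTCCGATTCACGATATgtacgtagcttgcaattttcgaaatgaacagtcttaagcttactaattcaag

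Intron 3 of alp41 (52 bases) lost its junction reads. It had 18 and 14 junction reads in wild type and 0 and 0 in dbr1Δ, against 1 and 8 boundary reads in wild type and 61 and 68 in dbr1Δ. Boundary reads were thus 5.26% and 36.4% of boundary plus junction reads in wild type and 100% in both dbr1Δ cultures, where 0 junction reads among 61 and 68 reads allow a junction share of up to 4.92% and 4.41%. Intervals and limits of this kind cover counting error only, since the libraries were amplified by PCR without molecular identifiers. Scaled by library size, the exact 95% interval of the ratio of junction reads, dbr1Δ over wild type, reached up to 0.164. SE was 3.25 and 0.74 in wild type and -5.95 and -6.11 in dbr1Δ, a difference of -8.02. The size of this difference depends on the added constant because JR was 0 (-9.22 with 0.5 in place of 1). It passed the Cochran-Mantel-Haenszel (CMH) test with an adjusted p of 2.1e-25 and the edgeR test of read class by strain, which allows for spread between libraries, with an adjusted p of 4.5e-13. Of the 3822 introns with enough reads, with at least 10 junction plus boundary reads in at least 2 libraries, none had a larger drop in SE, and the median difference was -1.19.

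The loss of junction reads was rare. Of 3334 introns with at least 10 junction reads in each wild-type library, 4 had 0 in both dbr1Δ libraries. Intron 3 of alp41 was 1 of them, and the other 3 lie in dbr1 itself, the deleted gene. This count was chosen after the values were seen.

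The level of intron 3 was 0.32 and 0.42 CPM in wild type and 2.59 and 3.60 CPM in dbr1Δ, so that the strains did not overlap (log2 fold change 2.99, s.e. 0.32, edgeR adjusted p = 1.01e-04). All of this rise came from boundary reads, because the intron reads were 7 and 7 in wild type and 4 and 3 in dbr1Δ. Intron 2 (40 bases) showed the opposite composition. It is shorter than a read, so none of its intron reads can lie wholly inside it, and how they were assigned is not given. Its intron reads went from 2 and 0 in wild type to 49 and 30 in dbr1Δ, while its boundary reads were 0 and 2 in wild type and 1 and 0 in dbr1Δ. With boundary reads included, the level rose from 4 to 80 reads in all, a ratio of 26.8 after scaling (exact 95% interval of the counts 10.1 to 101). The log2 fold change was 4.64 (s.e. 0.46, edgeR adjusted p = 6.9e-05). Intron 2 met the filter for levels, at least 10 reads in at least 2 libraries, only through dbr1Δ (50 and 30 against 2 and 2). Its entry to the test thus depended on the strain in which it was high. Junction reads over intron 2 were 21 and 30 in wild type and 4 and 4 in dbr1Δ, a ratio of 0.21 (0.086 to 0.447). Its SE was 4.46 and 3.37 in wild type and 1.32 and 2.32 in dbr1Δ, and this difference of -2.09 was not called (CMH adjusted p = 1), with at most 2 boundary reads in any library. When introns were fitted apart from transcripts, that is, relative to the median intron, both levels were still called, with log2 fold changes of 3.29 for intron 2 (adjusted p = 2.1e-06) and 1.61 for intron 3 (8.2e-05).

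Intron 1 of alp41 (45 bases, also shorter than a read) fell in level. It had 29 and 27 intron reads and 4 and 0 boundary reads in wild type, and 10 and 4 intron reads and 1 and 2 boundary reads in dbr1Δ (log2 fold change -1.42, s.e. 0.45, edgeR adjusted p = 0.0244), or -2.81 with introns fitted apart (adjusted p = 1.4e-07). The call of the joint fit did not hold with DESeq2 (adjusted p = 0.0679), with scaling from nuclear protein-coding transcripts (0.0511) or without wild-type replicate 1 (0.112), dbr1Δ replicate 1 (0.0683) or dbr1Δ replicate 2 (0.117). Junction reads over intron 1 were 22 and 42 in wild type and 9 and 6 in dbr1Δ, a ratio of 0.314 (0.166 to 0.558), and its SE was not called (difference -2.04, CMH adjusted p = 0.766). The junction ratios of introns 1 and 2 lay below the fold change of the whole alp41 transcript, 0.687, as did their exact intervals, which cover counting error only. Most bases of that transcript lie in exons 6 and 7 (3526 and 1533 of 5484), away from these introns, so a part is set against the whole.

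Introns 4 to 6 of alp41 had few reads. Intron 4 (38 bases) had 4 and 10 boundary and 6 and 12 junction reads in wild type and 0 and 6 boundary and 4 and 1 junction reads in dbr1Δ, with no called difference (-0.11). Intron 5 (42 bases) had 1 and 4 junction reads in wild type and none in dbr1Δ, with 2 or 3 boundary reads in each library, and was too low to test. Intron 6 (54 bases), in the 3′ UTR, stood apart in both strains. It had 15 and 22 boundary reads in wild type and 16 and 9 in dbr1Δ, but only 1 junction read in 4 libraries. Its SE was negative throughout (-4.00 and -3.52 in wild type, -4.09 and -3.32 in dbr1Δ), and neither its level (log2 fold change -0.00) nor its SE (difference 0.06) was called. With introns fitted apart its level was decreased (-1.39, adjusted p = 0.0027).

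**Figure D1:**
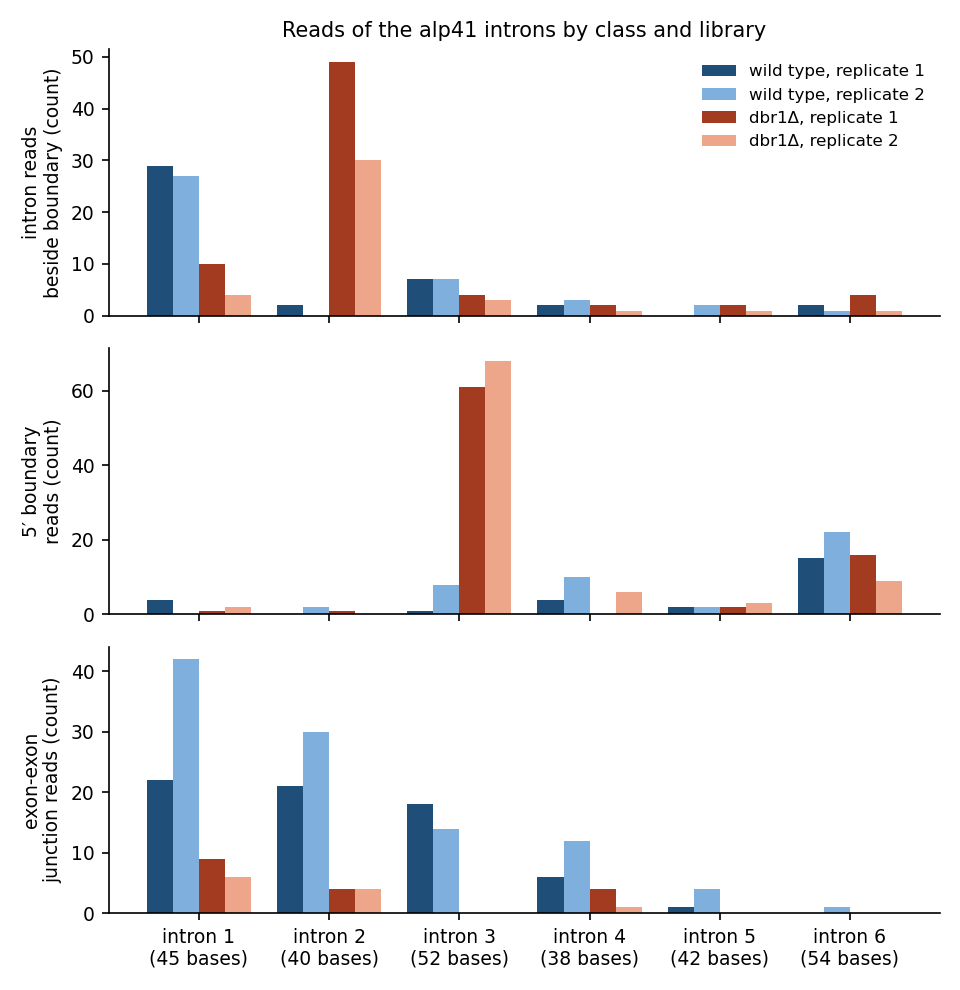
Reads of the 6 alp41 introns, unscaled, by library: intron reads other than boundary reads (top), reads across the 5′ exon-intron boundary (middle) and exon-exon junction reads (bottom), each bar 1 library. In dbr1Δ intron reads were high at intron 2 (49 and 30), boundary reads at intron 3 (61 and 68), and junction reads over intron 3 were 0.

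The same arrangement, with an upstream intron increased in level but not called in SE and the next intron called lower in SE, was found in 80 of the 1167 pairs of neighbouring introns with the needed tests (6.86%). Introns 2 and 3 of alp41 were 1 of these pairs. This pattern, too, was defined after the alp41 values were seen. On the opposite strand, 2 annotated transcripts overlap alp41. The gene mug62 had 27 and 21 reads in wild type and 48 and 49 in dbr1Δ (log2 fold change 1.42, s.e. 0.34, edgeR adjusted p = 0.00686), and SPNCRNA.676 had 17 and 19 reads in wild type and 17 and 29 in dbr1Δ (0.79, adjusted p = 0.152).

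The beta-tubulin gene nda3 (II:3964092-3966037, minus strand) has 5 introns, all with enough reads to test. Introns 3, 4 and 5 had lower SE in dbr1Δ and introns 1 and 2 were not called. Introns 4 and 5, the longest of the gene, also rose in level in the fit of transcripts and introns together, and neither rise was called when introns were fitted apart. The sequences of these 3 introns are shown because their reads changed, with the first and last pair of bases and the branch-site letters CTAAN, where found, in capitals.
nda3 intron 3 (II:3965693-3965733, minus strand): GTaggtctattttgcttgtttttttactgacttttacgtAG
nda3 intron 4 (II:3965549-3965637, minus strand): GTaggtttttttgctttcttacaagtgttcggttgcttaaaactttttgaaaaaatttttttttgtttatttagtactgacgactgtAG
nda3 intron 5 (II:3964578-3964662, minus strand): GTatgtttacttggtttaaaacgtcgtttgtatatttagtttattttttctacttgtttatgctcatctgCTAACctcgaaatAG

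Intron 3 of nda3 (41 bases, shorter than a read) had the most reads of the 24 introns. It had 50 and 68 boundary reads in wild type and 89 and 66 in dbr1Δ, and 2179 and 2853 junction reads in wild type and 1156 and 940 in dbr1Δ. The boundary share was 2.24% and 2.33% in wild type and 7.15% and 6.56% in dbr1Δ, and the 95% Wilson intervals of the strains did not overlap. SE fell by 1.65 on the log2 scale (CMH adjusted p = 3.4e-19, edgeR adjusted p = 3.9e-05). The intron reads themselves were lower in the mutant, 400 and 451 in wild type and 163 and 158 in dbr1Δ, and the level of 18.2 and 14.7 CPM in wild type and 10.03 and 11.4 CPM in dbr1Δ gave a log2 fold change of -0.62 (s.e. 0.15, edgeR adjusted p = 0.00701), short of the 2-fold cutoff. With introns fitted apart it was -2.03 (adjusted p = 1.3e-14). The adjusted p of the joint fit was above 0.05 without wild-type replicate 1 (0.0591) and without dbr1Δ replicate 1 (0.0608).

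Intron 5 of nda3 (85 bases) had 44 and 77 intron reads in wild type and 171 and 146 in dbr1Δ. Its level was 2.50 and 2.66 CPM in wild type and 8.002 and 8.57 CPM in dbr1Δ, a log2 fold change of 1.68 (s.e. 0.16, edgeR adjusted p = 5.8e-05). With introns fitted apart it was 0.28 (adjusted p = 0.238). Boundary reads were 18 and 17 in wild type and 30 and 23 in dbr1Δ beside 440 and 574 and then 326 and 225 junction reads, a boundary share of 3.93% and 2.88% against 8.43% and 9.27%. SE fell by 1.45 (CMH adjusted p = 9.6e-05, edgeR adjusted p = 0.0150). The CMH call was lost with replicate 1 of each strain alone (adjusted p = 0.0877), and the edgeR call without wild-type replicate 2 (0.144), dbr1Δ replicate 1 (0.111) or dbr1Δ replicate 2 (0.119).

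Intron 4 of nda3 (89 bases) had 27 and 47 intron reads in wild type and 75 and 68 in dbr1Δ. Its level was 1.29 and 1.44 CPM in wild type and 3.50 and 3.802 CPM in dbr1Δ (log2 fold change 1.40, s.e. 0.21, edgeR adjusted p = 6.4e-04). With introns fitted apart the log2 fold change was 0.01 (adjusted p = 0.974). Boundary reads were few, 5 and 4 in wild type and 13 and 7 in dbr1Δ, beside 644 and 959 junction reads in wild type and 645 and 431 in dbr1Δ. The fall in SE of 1.53 was called by the CMH test (adjusted p = 0.0359) but not by the edgeR test (0.0713) or with either replicate number alone (0.217 and 0.413).

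Intron 1 of nda3 (36 bases) had 149 and 201 junction reads in wild type and 146 and 155 in dbr1Δ, with at most 2 boundary reads in a library. Intron 2 (51 bases) had 202 and 297 junction reads in wild type and 205 and 129 in dbr1Δ, with 1 and 7 boundary reads in wild type and 5 and 1 in dbr1Δ. Neither level was called (log2 fold changes 0.50 and -0.04, and -0.89 and -1.41 with introns fitted apart, adjusted p = 0.0126 and 0.00215, of which the second was past the cutoff), and neither was SE (differences of -1.29 and -0.38, CMH adjusted p = 0.598 and 1).

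**Figure D2:**
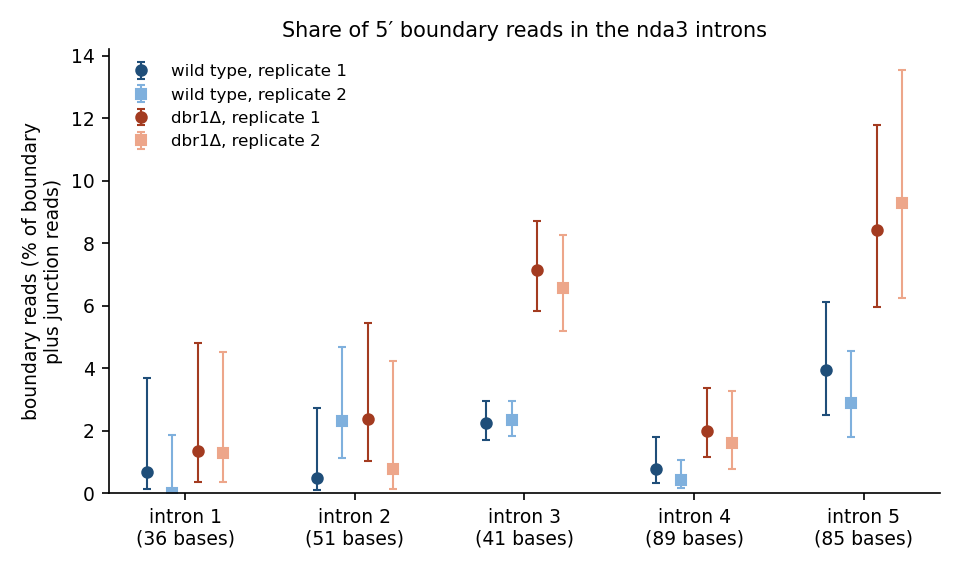
Boundary reads as a percentage of boundary plus junction reads in the 5 introns of nda3, from 5′ to 3′, by library; bars are 95% Wilson intervals of the counts. The dbr1Δ cultures lie above the wild-type cultures at introns 3 (7.15% and 6.56% against 2.24% and 2.33%), 4 and 5, and also at intron 1, which had at most 2 boundary reads in a library (1.35% and 1.27% against 0.667% and 0%), and the strains overlap at intron 2.

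The essential alpha-tubulin gene nda2 (II:4268920-4270761, plus strand) has a single intron of 90 bases, the longest of the 24, shown as the member intron nearest to the fold cutoff. Capitals are as above, and the letters CTAAN occur at 2 places.
nda2 intron 1 (II:4269046-4269135, plus strand): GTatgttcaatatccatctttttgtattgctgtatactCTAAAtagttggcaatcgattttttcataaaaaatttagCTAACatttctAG

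The nda2 intron had 124 and 144 intron reads in wild type and 176 and 215 in dbr1Δ, or a level of 5.01 and 4.09 CPM against 7.05 and 11 CPM. The log2 fold change was 0.99 (s.e. 0.23, edgeR adjusted p = 0.00669), just short of the cutoff of 2-fold, and it lay beyond the cutoff under 7 of the alternative settings. Its adjusted p was 0.0618 without wild-type replicate 2, and with introns fitted apart the direction turned (-0.42, adjusted p = 0.0680). Its boundary reads were 0 and 1 in wild type and 1 and 2 in dbr1Δ, too few to tell the strains apart (SE difference -2.09, CMH adjusted p = 0.305). Junction reads were 330 and 498 in wild type and 154 and 176 in dbr1Δ, a ratio of 0.535 (0.469 to 0.608). The other alpha-tubulin gene, atb2 (II:260309-262185, minus strand), has no intron in the table.

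The gamma-tubulin gene gtb1 (II:2791160-2794184, plus strand) has 6 introns, of which introns 3 and 5 could be tested for SE. Intron 3 (69 bases) had 29 and 27 junction reads in wild type and 4 and 8 in dbr1Δ, with 3 and 4 boundary reads in wild type and 7 and 3 in dbr1Δ. The boundary share was 9.38% and 12.9% in wild type and 63.6% and 27.3% in dbr1Δ, so that the dbr1Δ cultures were both higher but differed widely. SE fell by 2.45 (CMH adjusted p = 0.0114). The edgeR test did not call it (adjusted p = 0.116), and neither did the CMH test on replicate 2 of each strain alone (adjusted p = 1). Its level of 0.40 and 0.59 CPM in wild type and 0.68 and 0.66 CPM in dbr1Δ was not called (log2 fold change 0.39, adjusted p = 0.408, and -0.99 with introns fitted apart, adjusted p = 0.0391). The intron is shown as the gtb1 intron with the call.
gtb1 intron 3 (II:2791797-2791865, plus strand): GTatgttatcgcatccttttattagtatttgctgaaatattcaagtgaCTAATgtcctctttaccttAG

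Intron 5 of gtb1 (50 bases) had 26 and 27 junction reads in wild type and 18 and 12 in dbr1Δ, with 0 and 0 boundary reads in wild type and 1 and 1 in dbr1Δ, and was not called (difference -1.81, CMH adjusted p = 0.546). Introns 1, 2, 4 and 6 of gtb1 had from 0 to 12 junction reads in a library and could not be tested.

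The cofactor D gene alp1 (II:3353046-3357140, minus strand) has 6 introns. Of these, 5 could be tested for SE and none was called (CMH test, 2 at an unadjusted p under 0.05). The share of all introns at that unadjusted threshold was not counted. Intron 3 passed the edgeR test of SE before adjustment, and no alp1 intron passed it after adjustment. For level, only intron 4 had enough reads to test, and it was not called (log2 fold change 0.64, edgeR adjusted p = 0.366). The levels of the other alp1 introns were not tested. Introns 1 and 5 were covered best. Intron 5 (46 bases) had 46 and 69 junction reads in wild type and 44 and 44 in dbr1Δ with 1 boundary read in all 4 libraries, and intron 1 (44 bases) had 48 and 56 against 31 and 27 junction reads. Intron 3 (39 bases) had 0 and 0 boundary reads in wild type and 4 and 2 in dbr1Δ (SE difference -2.45, CMH adjusted p = 0.116), and intron 6 (42 bases) 2 and 1 against 7 and 3 (-1.89, adjusted p = 0.135). Intron 4 (48 bases) had boundary reads near or above its junction reads in both strains, with 9 and 5 boundary and 1 and 7 junction reads in wild type and 8 and 9 boundary and 4 and 7 junction reads in dbr1Δ. Its SE differed by 0.37, with overlapping values. Intron 2 was too low to test.

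Counted over the genes, 12 of the 24 introns passed the filter for levels (at least 10 reads in at least 2 libraries), and an intron was called when its adjusted p was under 0.05 and its fold change over 2. Of these, 4 were increased (alp41 introns 2 and 3 and nda3 introns 4 and 5), where 53% of all 3117 tested introns were. In turn, 1 was decreased (alp41 intron 1), where 1.32% were. Introns 2 and 3 of alp41 met the filter for levels only with dbr1Δ libraries counted, where they were high. The median log2 fold change of all tested introns was 1.24. With introns fitted apart, 2 stayed increased (alp41 introns 2 and 3) and 4 were decreased (alp41 introns 1 and 6 and nda3 introns 2 and 3). That fit scales introns to their own median. The share of all introns called in it was not counted, and the shares given above for the joint fit do not apply to it. For SE, 18 introns had enough reads and 5 were called lower (alp41 intron 3, nda3 introns 3, 4 and 5 and gtb1 intron 3), where 21.8% of the 3570 introns with a CMH p were. None was called higher (CMH test, 0 at an unadjusted p under 0.05; edgeR test, 0), where 0.14% were. With the edgeR test, alp41 intron 3 and nda3 introns 3 and 5 were called, 3 of 18, where 12.4% of 3822 were. SE was lower on average in dbr1Δ in 15 of the 18 introns. The median difference over all 3822 introns was -1.19, so a lower SE was common and not particular to these genes.

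**Figure D3:**
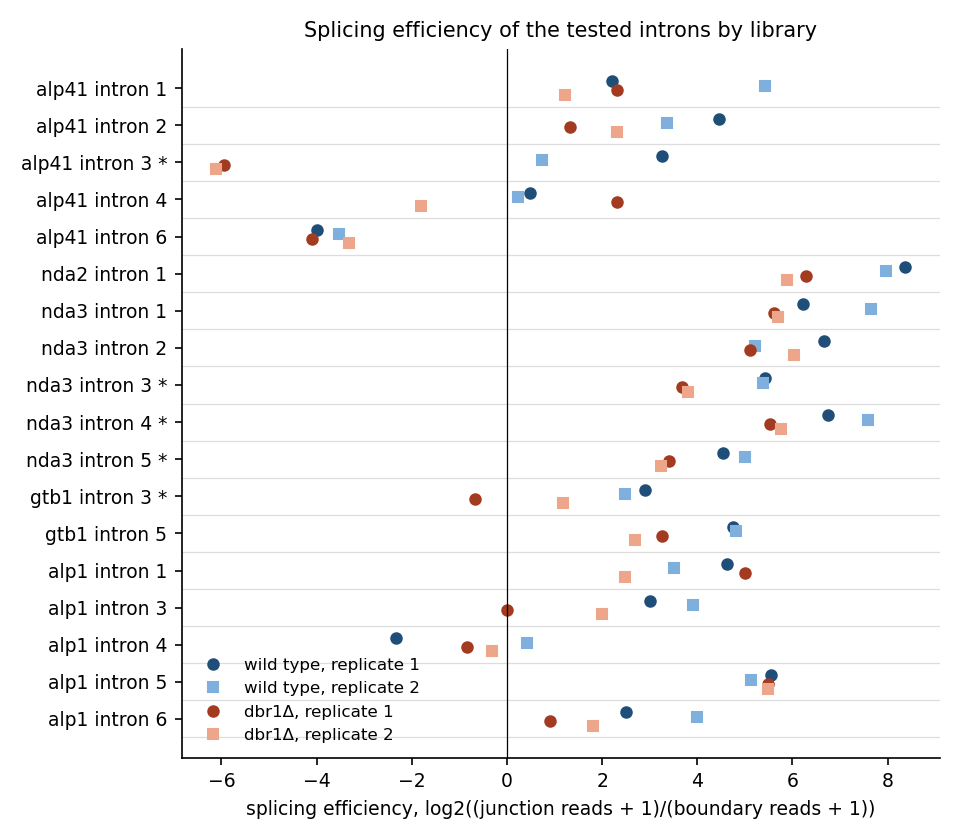
Splicing efficiency, on the log2 scale, of the 18 tested introns, 1 symbol per library; an asterisk marks a CMH adjusted p under 0.05. The dbr1Δ values of alp41 intron 3 (-5.95 and -6.11) lie apart from all others, and alp41 intron 6 is near -4 in both strains.

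At the transcript level the changes were small. Of the 6 genes, 4 were lower in dbr1Δ at an adjusted p under 0.05, where 42.6% of 6401 tested transcripts were, and 1 was higher, where 17.8% were. None passed the 2-fold cutoff, which 9.5% of transcripts did in either direction. At an unadjusted p under 0.05, 5 of the 6 differed, and DESeq2 also found 0 past the cutoff. The share of all transcripts at that unadjusted threshold was not counted. The median log2 fold change of all tested transcripts was -0.18 and became -0.01 with TMM factors from transcripts only, a shift of 0.17. In bulk RNA, a smaller share of cells with a transcript cannot be told apart from less of it in each cell.

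The alp41 transcript had 2009 and 3025 reads in wild type and 1529 and 1054 in dbr1Δ, or 81.1 and 85.4 CPM against 60.9 and 53.4 CPM. It fell by 0.54 on the log2 scale (s.e. 0.08, edgeR adjusted p = 7.3e-04), and 18.8% of tested transcripts had a lower fold change. The alpha-tubulin transcript nda2 had 349 and 310 CPM in wild type and 179 and 232 CPM in dbr1Δ, a fall of 0.68 (s.e. 0.12, adjusted p = 0.00191). The beta-tubulin transcript nda3 had 637 and 597 CPM in wild type and 407 and 451 CPM in dbr1Δ, a fall of 0.53 (s.e. 0.08, adjusted p = 8.3e-04). The gamma-tubulin transcript gtb1 had 38.0 and 31.6 CPM in wild type and 24.6 and 24.3 CPM in dbr1Δ, a fall of 0.50 (s.e. 0.11, adjusted p = 0.00425). With the scaling from transcripts the falls were smaller, with log2 fold changes of -0.37 for alp41, -0.51 for nda2, -0.35 for nda3 and -0.33 for gtb1. For each of these 4 genes both dbr1Δ cultures lay below both wild-type cultures, as they also did for atb2, which was not called. How many of all transcripts separate in this way was not counted. With 2 cultures a side, the smallest p of an exact permutation test is 0.333, so this separation carries little weight.

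The alpha-tubulin gene without an intron, atb2, had 485 and 474 CPM in wild type and 431 and 447 CPM in dbr1Δ, and its log2 fold change of -0.13 (s.e. 0.07) was not called (edgeR adjusted p = 0.156). With the scaling from transcripts it was 0.05. The cofactor D gene alp1 was the only member that rose at an adjusted p under 0.05, from 55.2 and 51.3 CPM in wild type to 65.0 and 66.2 CPM in dbr1Δ (log2 fold change 0.30, s.e. 0.07, edgeR adjusted p = 0.00682). Its log2 fold change was 0.48 with the scaling from transcripts. The call on alp1 was lost without wild-type replicate 2 (0.26, adjusted p = 0.0625), and the call on gtb1 was lost with the scaling from nuclear protein-coding transcripts (-0.27, adjusted p = 0.0599).

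**Figure D4:**
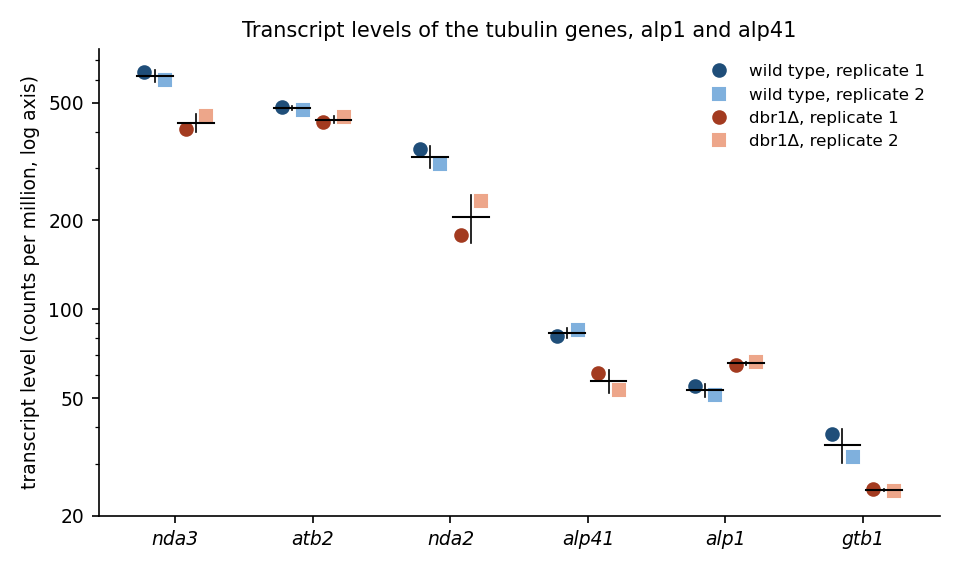
Transcript levels of the 6 genes in CPM on a log axis, 1 symbol per culture; horizontal bars are the mean of the 2 cultures of a strain and vertical bars 1 SD. The dbr1Δ cultures lie below the wild-type cultures for nda3, atb2, nda2, alp41 and gtb1, by little for atb2, and above them for alp1.

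Per kilobase of exon (deposited RPKM), nda3 was the most abundant in wild type at 373 ± 17.8 (SD, n = 2), followed by atb2 at 254 ± 4.65 and nda2 at 187 ± 15.9. At a far lower level came alp41 at 14.8 ± 0.51, alp1 at 13.8 ± 0.75 and gtb1 at 12.8 ± 1.69. Of these, alp1 (14.3 and 13.3) and gtb1 (14.0 and 11.6) overlapped, and the lower alp41 culture (14.5) lay just above alp1. In dbr1Δ the order was nda3 (267 ± 11.7), atb2 (239 ± 0.46), nda2 (120 ± 18.8), alp1 (17.5 ± 0.26), alp41 (10.5 ± 1.26) and gtb1 (9.29 ± 0.36), so that alp1 and alp41 changed places, and alp41 and gtb1 differed by less than the SD of alp41. Within the alpha-tubulins, nda2 made up 43.5% and 41.2% of the alpha-tubulin RPKM in wild type and 30.8% and 35.8% in dbr1Δ. The ratio of both alpha-tubulins to nda3 was 1.18 and 1.18 in wild type and 1.34 and 1.35 in dbr1Δ. The ratio of nda3 to gtb1 overlapped, 27.5 and 31.0 against 27.1 and 30.4. With 2 cultures a side the smallest p of an exact permutation test is 0.333, so no test of these ratios was made. Reads that could match both alpha-tubulins were limited to few places: 20 of 1712 windows of 49 bases in nda2 (1.17%) occur in atb2 with up to 3 mismatches, and none did between any other pair of the tubulin genes.

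The genes around this pathway moved as follows. Of the chaperonin CCT, which folds tubulin and actin, 7 of 8 subunit genes were lower and none higher (median log2 fold change -0.48), among them cct7 (-0.73, s.e. 0.09, edgeR adjusted p = 2.3e-04), cct5 (-0.62) and cct6 (-0.50). Of prefoldin, which hands chains to CCT, 5 of 6 genes were lower (median -0.37), including pfd2 (-0.51), pfd3 (-0.47) and pfd6 (-0.41). These counts stand beside 42.6% of all transcripts lower and a median of -0.18. The 3 other folding cofactors found (of alp11, alp21 and alp31) had a median of 0.03, and 0 of them passed edgeR's quasi-likelihood test in either direction, also 0 at an unadjusted p under 0.05 and 0 with DESeq2.

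Of 14 genes of the gamma-tubulin complex and its recruiters, 10 were lower and none higher (median -0.31), with ppc89, a spindle pole body protein, at -0.72, the complex subunit alp6 at -0.63 and rsp1 at -0.59. Of 13 genes of plus-end and lattice proteins, 10 were lower (median -0.38), with the cell-end marker tea1 at -0.72, dis1 at -0.57 and the end-binding protein mal3 at -0.54. Of 13 kinesin and dynein genes, 7 were lower and 2 higher (median -0.26), where 42.6% of all transcripts were lower and 17.8% higher. The dynein heavy chain gene dhc1 fell from 174 and 180 CPM in wild type to 92.7 and 76.1 CPM in dbr1Δ (-1.07, s.e. 0.10, edgeR adjusted p = 4.2e-05), whereas dli1, for a light intermediate chain of dynein, rose from 3.67 and 3.47 CPM to 12.2 and 13.4 CPM (1.84, s.e. 0.15, adjusted p = 1.8e-05). The spindle motor gene cut7 was at -0.996. Of 3 other GTPase genes of the ARF family found, arf6 (-0.83) and arf1 (-0.38) were lower.

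Introns of these lists were called lower in SE in 3 of 15 tested for CCT, 6 of 12 for prefoldin, 0 of 6 for the gamma-tubulin complex, 1 of 4 for plus-end and lattice proteins, 1 of 13 for kinesins and dynein, 3 of 7 for the ARF family and 1 of 3 for the cofactors, beside 21.8% of all introns tested. By the edgeR test they were 1 for CCT, 5 for prefoldin, 0 for the gamma-tubulin complex, 1 for plus-end and lattice proteins, 1 for kinesins and dynein, 0 for the ARF family and 1 for the cofactors, beside 12.4% of all introns. At an unadjusted p under 0.05, the gamma-tubulin complex list had 2 lower introns by the CMH test and 1 by the edgeR test, and the ARF family 4 and 2. The share of all introns at that unadjusted threshold was not counted. The transcripts whose profile over the 4 libraries was nearest to that of alp41, by the root mean square difference of centred log2 CPM among 6400 transcripts, were SPCC1672.11c (0.011), inp53 (0.012) and SPCC63.13 (0.013). They were picked by these same values, and how near the closest transcripts of other genes lie was not computed. A link of these genes to alp41 was not tested.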

How the data were processed

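Expression and splicing were measured by RNA-seq in 2 wild-type and 2 dbr1Δ cultures. Reads of 49 bases were aligned by the authors, with Bowtie and up to 3 mismatches, to Ensembl build EF1 and its exon-exon junctions and removed reads that matched multiple loci. Deposited values are the authors' counts of reads per transcript or intron and of boundary reads, log2(RPKM + 1e-05), and log2 splicing efficiency. The authors' columns of DESeq fold changes, adjusted p-values, fold changes in splicing efficiency and Q-values were not used. Junction reads were solved from splicing efficiency and boundary reads, and 100% came out whole within 0.01.

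Levels were tested by the quasi-likelihood test of edgeR 4.0.16 in R 4.3.3, scaled by TMM over all loci, on the 9518 loci that reached 10 counts in 2 or more libraries, with Benjamini-Hochberg adjustment over all of them. Splicing was tested with a Cochran-Mantel-Haenszel test over replicate numbers (3570 of 3822 introns gave a p), which treats reads as independent, and with an edgeR interaction test. With 2 cultures a strain, the p-values of the edgeR tests measure the spread between these cultures. Those of the Cochran-Mantel-Haenszel test cover counting error only. DESeq2 1.42.0, other scalings and filters, a replicate block and leaving out libraries were alternatives. The steps were also run on simulated data, and the outcome is not reported here. The simulated reads of the splicing test had no spread between cultures, so they do not check its treatment of reads as independent. Of 7022 transcripts, 6844 matched RefSeq by identifier, and 96.7% of 5358 nuclear introns lie at identical RefSeq coordinates. All 6 genes, all their introns, of each list up to 3 genes past an adjusted p of 0.05, by size of change, and the 3 nearest profiles are named. The genes, lists and tests were chosen with earlier results of these data known.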

Additional observations from a re-analysis of the deposited data

How the results depend on the processing

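The count of the 6 genes past the fold cutoff, 0, became 5 without that cutoff and stayed 0 under all 13 other settings run. The 4 increased introns became 2 when introns were fitted apart, which scales them to their own median. They became 5 with scaling by library total, from transcripts or from nuclear protein-coding transcripts. Without the low-count filter or without the fold cutoff they were also 5, and with a mean of at least 50 counts 3. The 1 decreased intron became 0 with DESeq2, with scaling from nuclear protein-coding transcripts and with a mean of at least 50 counts, 2 without the fold cutoff, 4 when introns were fitted apart and 0 to 1 without single libraries. The 5 introns with lower SE became 3 with the edgeR test, 3 after thinning to the smallest library, 3 without replicate 1 or 2 in the Cochran-Mantel-Haenszel test and 2 to 3 in the edgeR test without single libraries. The replicate numbers do not pair cultures (correlation of deviations -0.0228), and a fit with the replicate block gave 0 genes past the cutoff, 4 genes lower, 4 increased introns and 1 decreased intron. Without replicate strata, Fisher's exact test on summed reads called 5 introns. For single genes and introns, 358 values kept their direction and their side of the threshold, 28 lost the call and 10 gained it. Direction turned for 35. In 32 of these neither adjusted p was under 0.05, and the other 3 were intron levels with introns fitted apart: nda2 intron 1 (-0.42), nda3 intron 1 (-0.89) and gtb1 intron 3 (-0.99). Leaving out either dbr1Δ library gave no value for alp41 intron 2, which then missed the minimum of 10 counts in 2 libraries. Boundary reads limit these comparisons, since 13 introns are under 49 bases and most introns had few such reads.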

Other observations

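Junction reads were spread unevenly over the introns of nda3, although all lie in 1 transcript, a feature picked out after the values were seen. In wild type, intron 3 had 88.0 and 80.6 CPM of junction reads and intron 1 had 6.02 and 5.68, with introns 2, 4 and 5 between them. In dbr1Δ, intron 3 had 46.0 and 47.7 CPM, a ratio of 0.559 (exact 95% interval of the counts 0.531 to 0.588), while intron 2 had 8.16 and 6.54 (ratio 0.898, 0.780 to 1.03) and intron 1 had 5.81 and 7.86 (1.15, 0.986 to 1.35). In alp1, junction reads ranged in the same way from 3 reads in both wild-type libraries together at intron 2 to 115 at intron 5.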
